A study of Mus musculus with 6 samples.

Results

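Naive mouse embryonic stem cells in LIF/2i, from the R1 and the IB10 line, are described here with the spread of each gene between single cells inside that culture. The members are the wells of the LIF/2i samples that held 6000 to 200000 counts outside the ERCC spike-ins, which gave 158 of 188 wells for R1 and 184 of 188 for IB10, or 342 of the 1128 wells of the study. R1 and IB10 are established lines, and each gave 1 library per culture. All cells grew in serum-free N2B27 medium with LIF on gelatin- and serum-coated plastic. LIF/2i adds 3 µM CHIR99021, a GSK3 inhibitor that activates WNT signalling, and 0.1 µM PD325901, a MEK inhibitor. The rosette culture (LIM) keeps LIF and PD325901 (0.1 µM) but replaces CHIR99021 by IWP2 (2 µM), a block of WNT secretion; it lasted 6 passages for R1 and 5 for IB10. The primed culture lasted 4 days with LIF, IWP2 (2 µM), Activin A (20 ng/ml) and FGF2 (12 ng/ml), without the MEK inhibitor. LIF/2i and primed cells were at passage 24 (R1) and 28 (IB10), and rosette cells at passage 28 and 33, so passage and the rosette culture cannot be told apart. Cells were trypsinised, sorted by FACS into 384-well plates and counted with SORT-seq, a CEL-Seq2 method in plates in which molecular identifiers (UMIs) count transcripts at their 3' ends.

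Naive pluripotency is the state of the epiblast of the blastocyst before implantation. In culture LIF acts through STAT3, GSK3 inhibition relieves TCF7L1 repression of targets such as Esrrb and Tfcp2l1, and MEK inhibition blocks the FGF/ERK signal that drives exit from the state. The combination is known for cells that are more alike than in serum, where several pluripotency factors vary from cell to cell.

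The R1 wells held 5873768 counts in all (lowest 6916, median 34949, highest 138561) and the IB10 wells 7798348 (lowest 10245, median 42493, highest 93807). The median well had 6370 genes in R1 and 6645 in IB10, and 1 UMI in it equals 28.6 and 23.5 CPM (counts scaled to 1000000 per well, outside ERCC). In R1 28 wells were under the lower bound and 2 over the upper one, and in IB10 4 were under. No 2 wells of the study had identical values. Spread is given as the excess coefficient of variation (excess CV): the square root of the variance between wells beyond Poisson counting noise, divided by the expected level. It is 0 where counting noise accounts for the variance and carries a minus sign where the variance was below counting noise. The dispersion index is the ratio of observed variance to counting noise. Wells of 1 library do not replicate the culture. No p-value was therefore made from wells, and the lines stand side by side.

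The 5 naive markers were read in the wells, but of these only Tfcp2l1 differed in level from rosette cells (below). The summed naive list had means of 8210 (R1) and 8675 CPM (IB10) in LIF/2i, and 8499 and 8015 in rosette cells. These values therefore do not tell LIF/2i from the rosette culture. Zfp42 (also called Rex1), a zinc-finger gene at chromosome 8, 43295063 to 43306980 (GRCm38, GENCODE M21, minus strand), had 202 CPM in its lowest R1 well, 1136 in the median and 2371 in the highest. In IB10 these were 256.3, 1031 and 2394 CPM. No well of either line was without Zfp42. Esrrb, an orphan nuclear receptor (chromosome 12, 86361117 to 86521628), had a median of 395.9 CPM in R1 and 473.4 in IB10, and 1 R1 well had none. Klf4, a Krüppel-like factor downstream of LIF (chromosome 4, 55527143 to 55532466), had means of 267.0 and 303.0 CPM, with no UMI in 2 R1 wells and 1 IB10 well. Tfcp2l1, a grainyhead-family factor (chromosome 1, 118627945 to 118685168), had medians of 339.9 and 443.9 CPM, and its lowest wells were at 34.92 and 47.52. Tbx3, a T-box factor (chromosome 5, 119670669 to 119684724), had means of 189.5 and 212.1 CPM and was at 0 in 2 R1 wells. Every marker was thus read in nearly all wells of both lines, and the ranges of the lines overlapped for all 5.

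Markers of other cells that the sort could hold summed to less than the 22 naive genes, whose median was 8199 CPM in R1 and 8587 in IB10. The lists differ in length. The summed level of the 15 primitive endoderm genes ran from 0.0 to 589.7 CPM in R1 (median 263.5) and from 65.0 to 643.2 in IB10 (median 330.5), and most of it was Sparc, which had 1282 and 2139 UMIs. Gata6 and Sox17, which define that lineage, had 4 and 7 UMIs in all R1 wells and 6 and 3 in IB10. The 7 mesendoderm genes summed to medians of 5.641 and 22.31 CPM, the 11 trophectoderm genes to 70.38 and 80.8, and the 8 neuroectoderm genes to 162.0 and 122.4. Of the feeder fibroblast list Col1a2 had no UMI in either library, which allows up to 0.511 CPM in R1 and 0.385 CPM in IB10 (3 counts of the total). The list summed to 68.48 to 2114 CPM in R1 (median 625.6) and 131.7 to 1426 in IB10 (median 623.3), carried mainly by Vim and Fn1. Of its 11 genes 7 were at 0 in R1 and 4 in IB10. Its median sum was above the medians of the naive markers Esrrb and Tfcp2l1, so it was not low beside a single marker. The 19 formative and primed genes summed to medians of 465.8 and 428.3 CPM, and the 2-cell-like genes to 249.3 and 207.2.

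The most abundant RNAs were ribosomal and mitochondrial. The 15 genes with the highest mean share took 13.5% of counts in the R1 wells and 14.9% in IB10, and 14 of the top 15 of either line were in that of the other. Messages counted once at their 3' end need no scaling by length, which may not hold for the ribosomal RNAs. Rn45s, the precursor of the cytoplasmic ribosomal RNAs, led with a mean of 21400 CPM in R1 (lowest 2122, median 18200, highest 91860) and 22950 in IB10 (lowest 1518, median 21620, highest 72650). mtCo1, a subunit of cytochrome oxidase, had means of 16490 and 15470 CPM, and mt-Rnr2, the large mitochondrial ribosomal RNA, 13840 and 17280. A further 7 of the 15 were mitochondrial messages, namely mtAtp6, mtCo2, mtNd1, mtCytb, mtNd4, mtNd2 and mtCo3, with means of 5208 to 14160 CPM. The nuclear messages were the ribosomal protein gene Rpl4 (6145 and 7361 CPM), the chaperones Hsp90aa1 (4634 and 5248), Hspa8 (4627 and 4647) and Hsp90ab1 (4168 and 4203), and the nucleolar protein gene Npm1 (4115 and 3992). How far priming on ribosomal RNA sets the values of Rn45s and mt-Rnr2, and so their ranks, was not tested.

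The abundant genes differed in how evenly the wells held them. Hsp90ab1 was among the 5 most even of the 1261 genes with 5 or more UMIs per well in both lines. Its excess CV was 0.106 in R1 and 0.1 in IB10. Others of these were Emc6 (−0.138 and 0.061), the proteasome subunit Psmd2 (0.108 and −0.047) and the splicing factor Hnrnpa3 (0.111 and 0.105). At the other end of the abundant genes stood Rn45s, at 0.778 and 0.545, and mt-Rnr2, at 0.51 and 0.36. The mitochondrial messages of the top 15 lay between 0.167 and 0.28 in both lines.

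In 5338 genes with a mean of at least 1 UMI per well in both lines, the median excess CV was 0.292 in R1 (quartiles 0.205 and 0.396) and 0.266 in IB10 (0.186 and 0.359). The 20 ERCC spike-ins with at least 1 count per well gave medians of 0.0541 and 0.0681, with a highest value of 0.409 in either line. Their measure was the same except that wells were scaled by their ERCC total. The spike-ins reached means of 126.7 and 118.4 UMIs per well and the median gene had 2.68, so these medians are not of like level. Spread fell with level: genes with 1 to 2 UMIs per well had medians of 0.373 and 0.335, and the 237 genes with 20 or more had 0.175 and 0.156. An excess CV of 0.5 or more was found for 574 genes in R1, 370 in IB10 and 195 in both, which is 3.65% of those measured. Only 8 genes reached 1 in both lines. Across genes, which are not independent replicates, the excess CVs of the lines correlated with a Spearman rho of 0.46, and of 0.654 over the 1261 genes with 5 or more UMIs per well. The wells share depth scaling and the gene's level, which both enter these correlations.

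**Figure D1:**
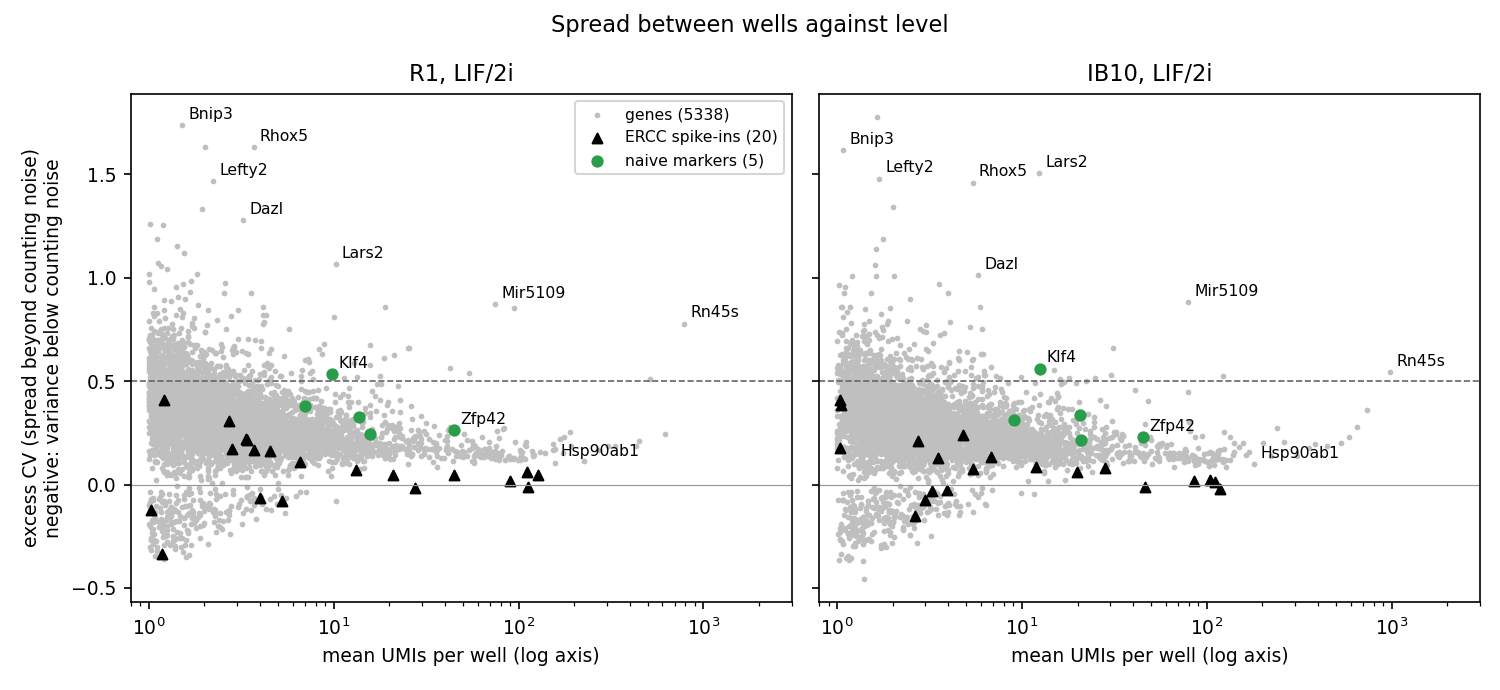
Excess CV (vertical axis) against mean UMIs per well (horizontal log axis) in the LIF/2i wells of R1 and IB10; grey points are 5338 genes, black triangles 20 ERCC spike-ins, green points the 5 naive markers, and the dashed line marks 0.5. From 2 UMIs per well upward, the median gene lies above most spike-ins of like level. At 1 to 2 UMIs genes and spike-ins overlap, with spike-ins up to 0.409 in both lines. Bnip3, Lefty2, Rhox5, Dazl, Lars2 and Mir5109 lie far above their neighbours in both lines.

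Of the 5 markers, Zfp42 and Esrrb lay below the median excess CV of all genes in both lines, and Tfcp2l1, Tbx3 and Klf4 above it. Zfp42 had an excess CV of 0.263 in R1 and 0.229 in IB10, and Esrrb 0.243 and 0.216. Tfcp2l1 had 0.326 and 0.335, and Tbx3 0.378 and 0.31. Klf4 had 0.535 and 0.56. All 5 were above the median of genes of their level, which was 0.23 and 0.213 for 5 to 20 UMIs per well and 0.175 and 0.156 for 20 or more; Klf4 was farthest above it. The highest Klf4 wells reached 1283 CPM in R1 and 1439 in IB10. Of 22 naive pluripotency genes 21 had 1 UMI per well or more, and 3 of these reached 0.5 in both lines, against 3.65% of all genes. They were Klf4, Manba (0.739 and 0.77), which encodes lysosomal beta-mannosidase, and Nr0b1 (0.701 and 0.631), the nuclear receptor Dax1. The median of the list was 0.321 and 0.331. Summed over the list the level was far more even than any of these 21 members, at an excess CV of 0.109 in R1 and 0.107 in IB10, with wells from 4476 to 11830 CPM and from 5485 to 12290. A sum of weakly correlated genes is more even than its members by construction, and no sum of like genes was set beside it.

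The other pluripotency factors ranged from very even to patchy. Pou5f1 (Oct4), the POU factor of all pluripotent states, had 116.4 CPM in its lowest R1 well, 503.9 in the median and 1334 in the highest, and 78.98, 539.2 and 1278 in IB10, with excess CVs of 0.477 and 0.325. Its partner Sox2 had medians of 581.2 and 749.8 CPM and excess CVs of 0.296 and 0.244, and neither gene was missing from any well. Nanog was low, with medians of 25.73 and 30.16 CPM and no UMI in 58 of 158 and 43 of 184 wells, yet its excess CV was 0.277 and 0.384. Genes with 1 to 2 UMIs per well had medians of 0.373 and 0.335, so its many wells at 0 came with a spread near that of its level. Dppa3 (Stella), a maternal factor that protects the maternal genome from demethylation in the zygote, was the reverse case, at 0 in 130 and 142 wells with excess CVs of 1.93 and 2.35 at a mean under 1 UMI per well. Prdm14, a repressor of FGF signalling, had 0.672 and 0.485, and Klf5 0.517 and 0.422. Dppa5a and the threonine dehydrogenase gene Tdh, both naive markers of high level, lay between 0.207 and 0.23, and Trim28, a corepressor, had 0.147 and 0.136. Nanog, Dppa3, Trim28 and the others were picked from the lists to show the range, after their values were seen.

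Targets of the signals that the medium sets were few at 1 UMI per well or more. Counts of 0 or 1 in lists this short cannot be told from the 3.65% of all genes at 0.5. Of 9 LIF/STAT3 targets with that level, Klf4 reached 0.5 in both lines, and the kinase gene Pim1 had 0.461 and 0.551. Of 5 FGF/ERK targets none did; Etv5, an ETS factor, had medians of 353.9 and 319.5 CPM with 0.241 and 0.294, and the inhibitor Spry2 had 0.705 in R1 and 0.363 in IB10. Of 4 WNT targets Bmp4 did. Cdx1 differed between the lines, with medians of 66.66 CPM in R1 and 22.16 in IB10 and excess CVs of 0.421 and 0.848, and no UMI in 32 and 73 wells. Ccnd1, cyclin D1, had 0.318 and 0.331, above the median of all genes.

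The markers correlated weakly with each other. Across wells, Zfp42 and Esrrb had a Spearman rho of 0.0972 in R1 and 0.0236 in IB10, and Zfp42 and Tfcp2l1 −0.0466 and −0.115. The largest value among the 10 pairs of markers was that of Esrrb and Tfcp2l1 in IB10, 0.345, which was 0.143 in R1. Klf4 and Tbx3 had 0.125 and 0.28. These are descriptions over 158 and 184 wells that share a library, and correlations of this size in sparse counts are no finding. Counting noise draws such values towards 0, so they cannot show whether the markers vary apart.

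The 20 genes with the widest spread, ranked by the lower excess CV of the lines, ran from Bnip3 to 1700013H16Rik, which had 0.818 as the lower value, and the next gene had 0.804. Their levels were low: means were between 22.87 and 138.4 CPM in 18 of them, and Lars2 and Mir5109 were higher. They are given below by role.

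Bnip3, a mitophagy receptor induced by HIF1 (chromosome 7, 138890836 to 138909519, minus strand), led the list. In R1 its lowest well had 0.0 CPM, the median 15.54 and the highest 815.8, with no UMI in 75 of 158 wells. In IB10 the median was 0.0 and the highest well 568.2, with no UMI in 93 of 184 wells. The excess CVs were 1.74 and 1.62, and the 10 highest wells held 48.0% and 41.9% of its UMIs. A small number of wells thus carried Bnip3 at a level far above the rest, in both lines.

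Glycolytic genes were high in several of those wells too. Pgk1, phosphoglycerate kinase, had 111.8, 346.0 and 2008 CPM in its lowest, median and highest R1 wells and 90.01, 335.4 and 1721 in IB10. Of the 10 wells highest in Bnip3, 6 were among the 10 highest in Pgk1 in R1 and 7 in IB10. For Ldha, lactate dehydrogenase A, 7 and 5 of the 10 were shared, and for Tpi1, triosephosphate isomerase, 6 and 5. Bnip3 and Pgk1 correlated across wells with Pearson's r of 0.746 in R1 and 0.692 in IB10, and with Spearman's rho of 0.446 and 0.27, so that the relation lay mostly in the high wells. The well total correlated with Bnip3 by −0.0743 and 0.0624 (Spearman).

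Of 16 glycolysis genes with 1 UMI per well or more, 4 reached an excess CV of 0.5 in both lines, against 3.65% of all genes. These were Ldha (0.627 and 0.509), Tpi1 (0.604 and 0.567), Pfkl and Ldhb. Gapdh, Pgam1 and Pkm, the most abundant of the pathway, lay between 0.15 and 0.23 in both lines. The sum over the list ran from 3912 to 17520 CPM in R1 (median 6643) and from 4300 to 17570 in IB10 (median 6519). The highest wells of both lines were thus far above the median, while the excess CV of the sum was 0.275 and 0.175.

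Lefty2, a secreted inhibitor of Nodal (chromosome 1, 180893108 to 180899103), was next. It had no UMI in 55 R1 wells and 71 IB10 wells, medians of 32.29 and 21.22 CPM, and highest wells of 823.5 and 707.5. The excess CVs were 1.47 and 1.48. Leaving out the 2 highest wells gave 1.02 in R1 and 1.48 in IB10. Nodal itself had 0.50 and 0.44, and Id3 had 0.84 and 0.60. None of the 5 genes with the closest correlation to Lefty2 reached a rho of 0.25 in either line, and these stayed weak in sparse counts.

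Germline genes that DNA methylation is known to silence were a second group. Rhox5, an X-linked homeobox gene (X, 37804842 to 37808876), had no UMI in 66 of 158 R1 wells and 40 of 184 IB10 wells, medians of 28.47 and 46.91 CPM, and highest wells of 807.4 and 929.1. Dazl, an RNA-binding protein of germ cells (chromosome 17, 50279395 to 50293636), had medians of 31.35 and 88.02 CPM and highest wells of 1175 and 1034. Excess CVs were 1.63 and 1.46 for Rhox5 and 1.28 and 1.01 for Dazl. Both genes ran from wells without a UMI through many intermediate wells to high ones, in both lines. Of the 14 genes of this list only these reached 1 UMI per well in both lines. Dnmt3l, the cofactor of the de novo methyltransferases (chromosome 10, 78041947 to 78063622), had 0.975 and 1.14, with medians of 47.27 and 14.3 CPM and no UMI in 38 and 90 wells. The nearest genes to Dnmt3l were L1td1 (rho 0.271 and 0.281) and Utf1 (0.26 and 0.27). Rhox5, Dazl and Dnmt3l were not among the 5 nearest genes of each other, and a shared cause was not tested.

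Btg2, an antiproliferative p53 target (chromosome 1, 134075170 to 134079120), had an excess CV of 1.07 and 1.01, and medians of 0.0 and 15.17 CPM with highest wells of 366.7 and 270.0. Of its 5 nearest genes across wells 3 were p53 targets, and the others were Glrx3 and Rtkn. Ccng1, cyclin G1, correlated with it by a rho of 0.494 in R1 and 0.357 in IB10. Mdm2, the ubiquitin ligase that degrades p53, gave 0.351 and 0.402, and Trp53inp1 0.434 and 0.291. Of the 10 wells highest in Btg2, 4 and 5 were among the 10 highest in Mdm2. Mdm2 ran from 0.0 to 807.2 CPM in R1 (median 90.97) and from 0.0 to 684.4 in IB10 (median 92.37). Ptp4a3, a phosphatase (1.02 and 1.01), also had Ccng1 nearest, at 0.371 and 0.386. Of 10 p53 targets with 1 UMI per well or more, Mdm2 (0.857 and 0.644) and Trp53inp1 (0.784 and 0.64) reached 0.5 in both lines, against 3.65% of all genes, and Cdkn1a, the p21 inhibitor, had 0.66 and 0.36.

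**Figure D2:**
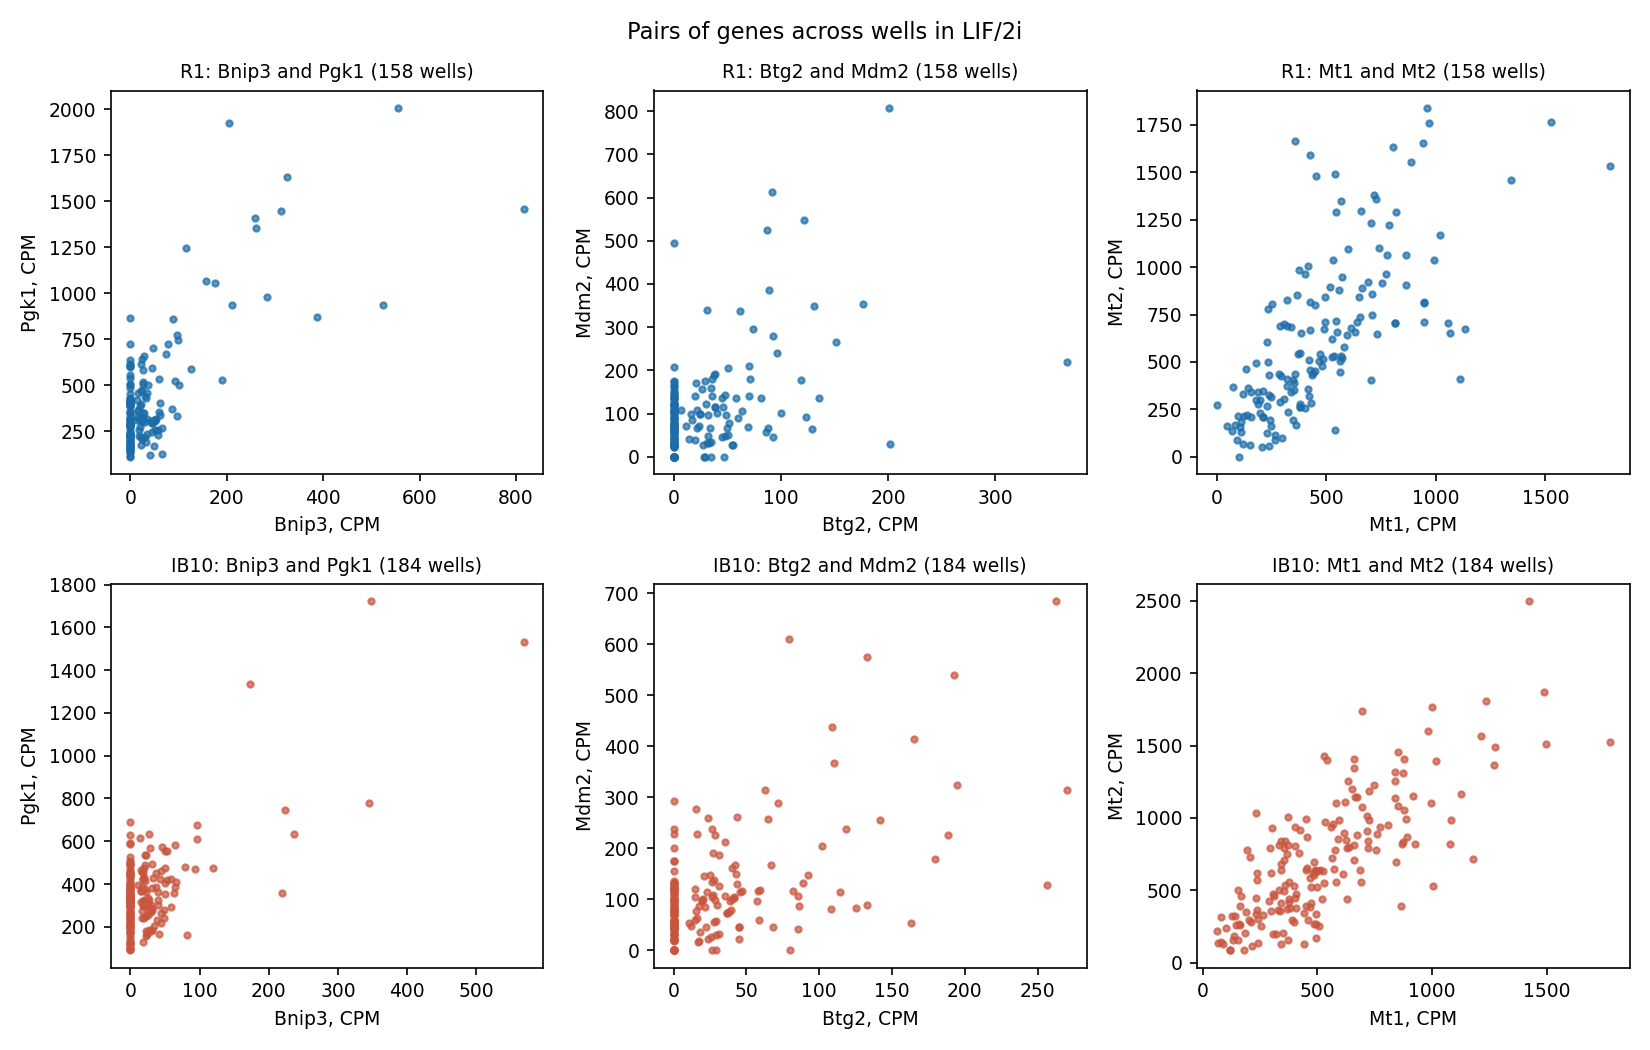
CPM of pairs of genes in each LIF/2i well (1 point per well), with R1 above (158 wells) and IB10 below (184 wells): Bnip3 and Pgk1, Btg2 and Mdm2, Mt1 and Mt2. A few wells stand high in both Bnip3 and Pgk1, whereas Mt1 and Mt2 are graded together over the whole range.

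Secreted and signalling genes among the 20 were Bmp4, a ligand that acts through SMAD1 (excess CV 1.05 and 0.966), Mmrn2, an extracellular matrix protein (1.04 and 0.927), and the galectin Lgals1 (1.26 and 0.86). Lgals1 fell to 0.462 in R1 with wells of 10000 to 100000 counts, and to 0.445 without its 2 highest wells, so its R1 value rests on few wells. AK010878 fell likewise without its 2 highest wells, from 0.967 to 0.459 in R1 and from 1.06 to 0.641 in IB10. Transcription factors were Sox15, a SOX factor of embryonic stem cells (0.886 and 0.824), and Atf5 of the amino acid stress response (0.895 and 0.856). Eif4g3, a translation initiation factor, had 0.83 and 0.957, and Raly, an RNA-binding protein, 0.926 and 1.01. Dqx1, a DEAQ-box helicase-like gene, had 1.63 and 1.34, with 85 R1 and 81 IB10 wells at 0 and highest wells of 670.4 and 691.1 CPM. Dcaf12l1, X-linked, had 0.977 and 0.833. The gene 1700013H16Rik differed between the lines: the median well had 83.94 CPM in R1 and 0.0 in IB10, and the excess CVs were 0.818 and 1.78.

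Lars2 and Mir5109 are less certain. Lars2 encodes the mitochondrial leucyl-tRNA synthetase, and its highest wells had 5675 CPM in R1 and 6123 in IB10 against medians of 189.1 and 182.5. The row named Mir5109 had medians of 1585 and 1556 CPM and tracked Rn45s across wells with a rho of 0.808 and 0.664. It also tracked the nuclear RNA Malat1 (0.697 and 0.655) and ran against the ribosomal protein gene Rpl7 (−0.473 and −0.472). Rn45s and mt-Rnr2 correlated by 0.738 and 0.581. Whether reads of these RNAs were split among near-identical copies was not tested, and the well total correlated with Mir5109 by 0.00577 and 0.161.

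**Figure D3:**
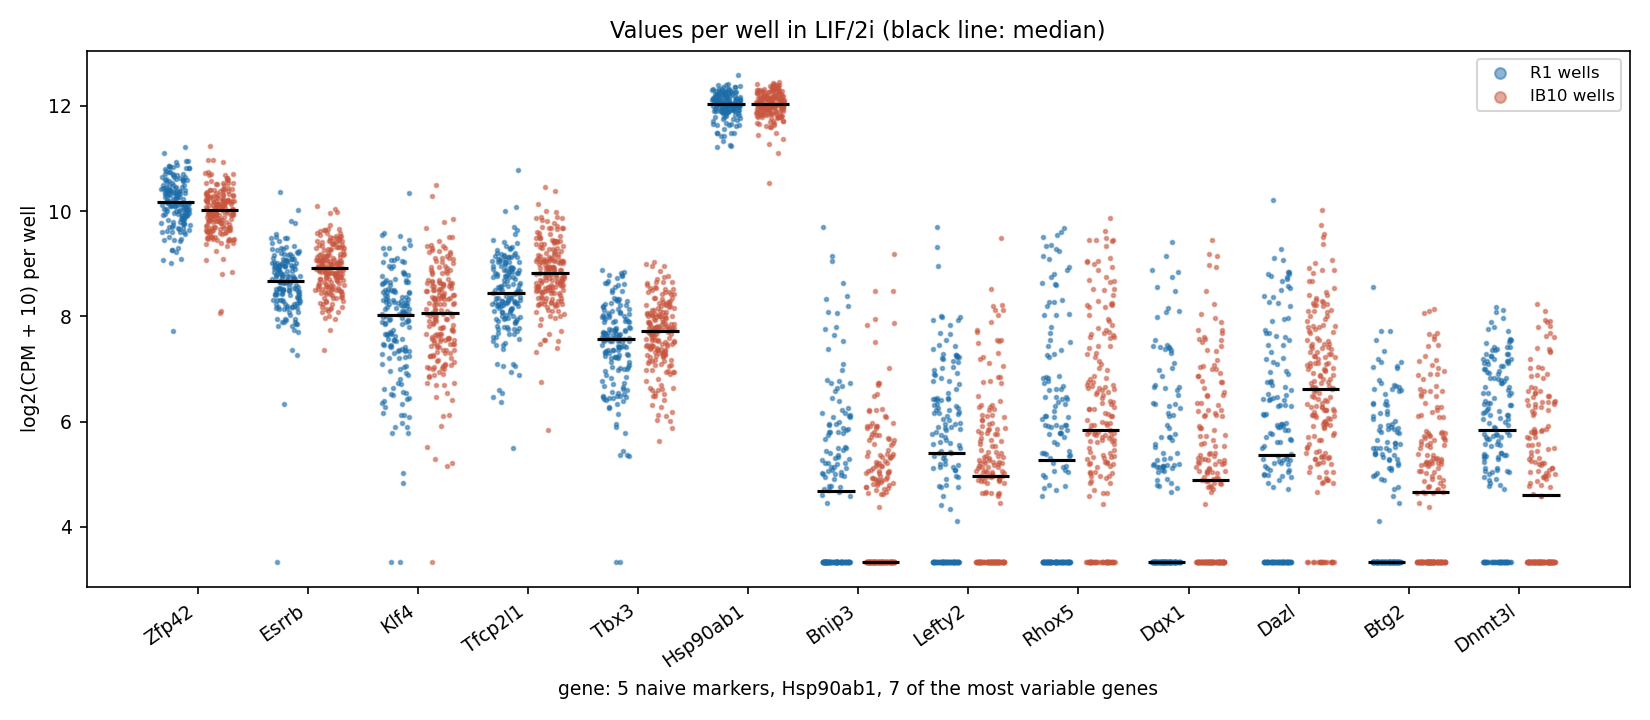
log2(CPM + 10) in each LIF/2i well (points; blue R1, red IB10; black line, median) for the 5 naive markers, Hsp90ab1 and 7 of the most variable genes. The markers and Hsp90ab1 form 1 compact cloud per line with few wells at 0, and the variable genes run from a row of wells without a UMI up to high levels.

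**Figure D4:**
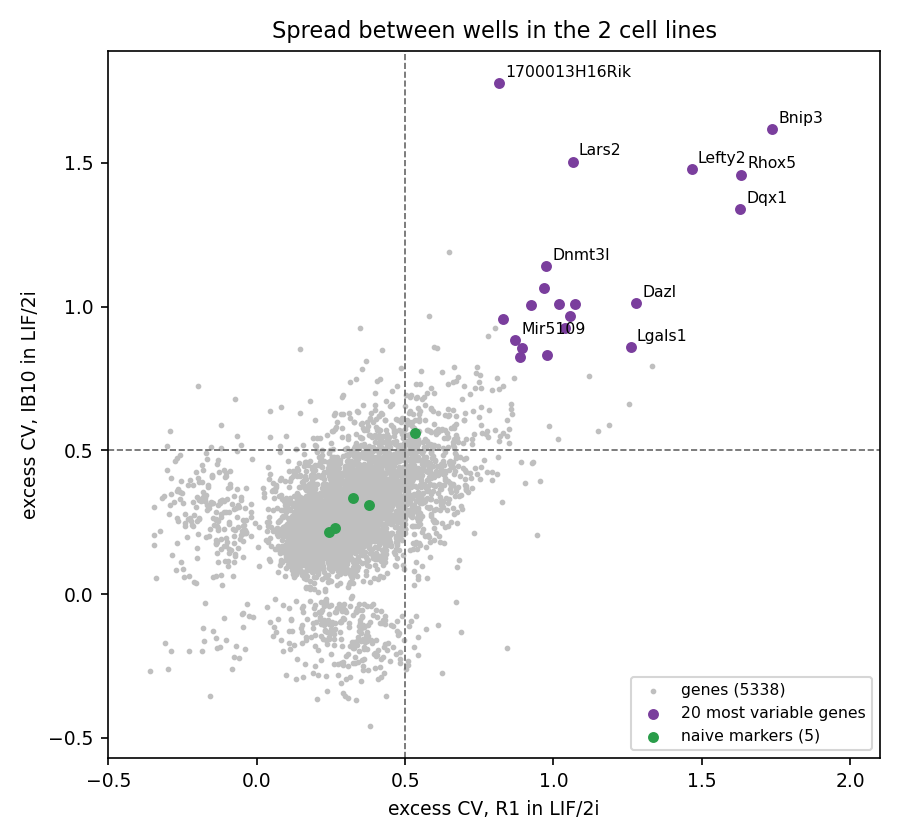
Excess CV in R1 (horizontal axis) against IB10 (vertical axis) for 5338 genes; purple points are the 20 most variable genes, green points the 5 naive markers, and dashed lines mark 0.5. Bnip3, Rhox5, Lefty2 and Dqx1 lie far out in both lines, and 1700013H16Rik and Lars2 lie higher in IB10.

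Below 1 UMI per well, 4314 genes had 20 UMIs or more in each line. The 10 with the highest dispersion index were picked for uneven wells, so UMIs drawn from few wells restate that rule. The share that the 10 highest wells would hold under counting noise was not computed. Peg10, a paternally expressed retroelement-derived gene, had 120 UMIs in R1 and 104 in IB10, of which the 10 highest wells held 53.4% and 47.1%. Dio3, the imprinted iodothyronine deiodinase, had 74 and 34 UMIs, and a dispersion index of 36.0 in R1 and 2.38 in IB10; its highest R1 well had 1420 CPM. Igfbp4, an IGF-binding protein, had 27 and 38 UMIs, with 88.9% and 71.1% of them in 10 wells. The others were Plk2, Gpx3, Tuba3b, 6330410L21Rik, 9530053A07Rik, Medag and Ptpn14, with indices of 2.38 to 3.98. Of the 2-cell-like genes, Zscan4c had 26 UMIs in IB10, with none in 180 of 184 wells and 626.2 CPM in the highest. In R1 it had 99 UMIs, with none in 94 of 158 wells. It was named after its values were seen.

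Single stress and imprinted genes were also wide, where 3.65% of all genes reached 0.5 in both lines. The metallothioneins Mt1 and Mt2 moved together, with rho of 0.752 in R1 and 0.755 in IB10, and had excess CVs of 0.526 and 0.498, and 0.661 and 0.53. The pair was chosen after its values were seen. Of 7 imprinted genes with 1 UMI per well, Meg3 (0.607 and 0.856) and Grb10 (0.67 and 0.58) reached 0.5 in both lines, and Mest differed, at 0.347 in R1 and 0.925 in IB10. Of 11 amino acid stress genes Atf5 and Mthfd2 reached 0.5. Of 5 formative genes with that level, Foxd3 (0.868 and 0.75) and Dnmt3b (0.64 and 0.54) did. None of the 16 cholesterol synthesis genes or 10 heat shock genes with 1 UMI did, which is near the share of all genes; Mvk came nearest, at 0.561 in R1 and 0.499 in IB10.

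The sums of cell cycle genes varied between wells. The sum of the 20 G2/M genes ran from 611.6 to 7854 CPM in R1 (median 3947) and from 827.1 to 7237 in IB10 (median 3676), with excess CVs of 0.307 and 0.283. The S phase sum had 0.204 and 0.137, and the sums were weakly opposed across wells (rho −0.213 and −0.374). Other list sums were opposed to a like degree, such as amino acid stress and p53 targets (−0.353 and −0.353). Plk1 and Ube2c, both of mitosis, had a rho of 0.606 and 0.626. Cenpf was the one G2/M gene of 20 at 0.5 or more in both lines (0.52 and 0.53), and Cdc6 (0.68 and 0.53) the one S phase gene of 16, both near the 3.65% of all genes. The median excess CV was 0.42 and 0.354 over the G2/M genes and 0.286 and 0.228 over the S phase genes, beside 0.292 and 0.266 over all genes. The G2/M sum correlated with the well total by 0.252 and 0.374. Of the widest genes, Bnip3 (−0.0328 and 0.0418), Lefty2 (−0.0701 and −0.0595), Dqx1 (0.111 and 0.0162) and Rhox5 (0.155 and 0.0493) correlated weakly with the G2/M sum. Counting noise draws values of such sparse genes towards 0, so they cannot show whether these genes vary apart from the cell cycle. Others of the 20 had larger values, such as Bmp4 (0.189 and 0.185) and Lgals1 (−0.257 and −0.0633). Eif4g3 had −0.246 and −0.247 with the S phase sum, and Atf5 0.247 and 0.235 with the well total.

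Of 14244453 gene pairs 72 had a rho of 0.5 or more in both lines. The 5 highest were of 2 kinds. A630089N07Rik with Gm17821 gave 0.903 in R1 and 0.875 in IB10, Gm17821 with Vmn2r55 0.823 and 0.805, and A630089N07Rik with Vmn2r55 0.841 and 0.761. These lie on chromosomes 16, 12 and 7, and Gm17821 is annotated as a processed pseudogene, so their counts are uncertain where reads fit more than 1 copy. mtAtp6 with mtCo2 gave 0.803 and 0.829, and mtAtp6 with mtCytb 0.769 and 0.819. Malat1 and Npm1 ran against each other (−0.553 and −0.477). With each well thinned to 6000 UMIs, 8 pairs were left.

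Promoter letters were compared because wide spread in other systems has been linked to TATA boxes. The motif TATAAA, on the gene's strand and starting 45 to 20 bases before the start, was found in 12 of 428 promoters (2.8%) of the tenth of genes with the largest excess CV. It was found in 4 of 429 (0.932%) of the tenth with the smallest, in 36 of 4363 (0.825%) of all 5338 genes that had a promoter in the RefSeq table, and in 640 of 27290 (2.35%) of the whole table. Fewer than 10 CpG in the 250 bases before the start were found in 25.2%, 11.7%, 16.2% and 61.4%. The most and least variable sets differ in level, with median genes at 1.66 and 7.88 UMIs per well, and its part in these shares was not tested. Too few promoters were matched among the 20 most variable genes (13 of 20, none with the motif), so the comparison is void there. Of the 1261 genes with 5 UMIs per well or more, the 126 with the largest excess CV had 99 matched promoters. The motif was found in 5 of these (5.05%). It was found in 1 of 101 (0.99%) for the 126 genes with the smallest excess CV, and in 18 of 1011 (1.78%) for all 1261. These counts are small and the shares were not tested. The 2 sets of 126 also differ in level, with medians of 8.52 and 27.6 UMIs per well. Of the 12 among 428 promoters, the 4 with the largest excess CV are shown with the 60 bases before the start. Beside them are Tfcp2l1, the only marker with the motif among the 4 naive markers in the table, and Bnip3, which has none there. Capitals mark TATAAA.
Nr0b1: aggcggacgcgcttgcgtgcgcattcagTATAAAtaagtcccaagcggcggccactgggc
Meg3: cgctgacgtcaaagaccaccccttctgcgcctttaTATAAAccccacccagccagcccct
Aqp3: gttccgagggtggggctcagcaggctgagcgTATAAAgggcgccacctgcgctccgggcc
Fam83d: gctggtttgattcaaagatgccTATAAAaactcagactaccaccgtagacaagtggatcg
Tfcp2l1: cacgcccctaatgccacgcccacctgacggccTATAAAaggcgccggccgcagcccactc
Bnip3: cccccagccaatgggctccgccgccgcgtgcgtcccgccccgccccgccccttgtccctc
They are RefSeq sequences on GRCm38.p6: chrX:86191715-86191774 (plus), chr12:109540936-109540995 (plus), chr4:41098184-41098243 (minus), chr2:158768039-158768098 (plus), chr1:118627885-118627944 (plus) and chr7:138909507-138909566 (minus). The motif starts 32, 25, 29, 38 and 28 bases before the start. Nr0b1 had excess CVs of 0.701 and 0.631, the noncoding RNA Meg3 0.607 and 0.856, the water and glycerol channel Aqp3 0.58 and 0.967, and Fam83d, a spindle protein, 0.502 and 0.526. A match is a description of letters, not of a bound site.

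Against the other cultures, the naive markers were higher in LIF/2i than in primed cells and only Tfcp2l1 of the 5 was called against rosette cells. Zfp42 had means of 1193 (R1) and 1056 CPM (IB10) in LIF/2i, 1337 and 1195 in rosette cells, and 129.3 and 225.3 in primed cells. The primed libraries were below all others, and the other 4 libraries lay close together. Tfcp2l1 had 375.5 and 485.6 CPM in LIF/2i, 200.5 and 184.6 in rosette cells and 15.82 and 15.37 in primed cells, 3 levels that did not overlap. In edgeR's quasi-likelihood test on counts summed over the wells of each library, Tfcp2l1 was higher in LIF/2i than in primed cells by 4.95 ± 0.18 (log2, SE; adjusted p = 7.7e-10) and than in rosette cells by 1.04 ± 0.14 (adjusted p = 0.00062). Zfp42 was higher than in primed cells by 2.85 ± 0.17 (adjusted p = 7.4e-08), and its difference from rosette cells was −0.20 ± 0.16 (adjusted p = 0.54). Of the naive list 18 of 22 genes were higher and 2 lower than in primed cells, against 19.4% and 17.9% of 12090 genes tested. Against rosette cells 3 were higher (Manba, Tdh and Tfcp2l1) and 3 lower (Fgf4, Fbxo15 and Jam2), against 2.0% and 2.89% of genes. These sums over wells do not by themselves tell fewer cells with a gene from less RNA per cell. The spread of Zfp42 and Esrrb between the wells of each culture is given below.

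Of 13 WNT targets tested, 5 were higher in LIF/2i, the culture with the GSK3 inhibitor, than in rosette cells and 0 lower, against 2.0% and 2.89% of all genes. Cdx1, a caudal homeobox gene, had 67.86 and 32.32 CPM in LIF/2i against 3.572 and 4.024 in rosette cells (3.49 ± 0.29), and Sp5, a feedback repressor of WNT targets, 30.86 and 20.75 against 2.054 and 1.717 (3.99 ± 0.34). Axin2, Bmp4 and T were the others. Of 17 cholesterol synthesis genes 15 were lower in LIF/2i than in rosette cells and 0 higher, against 2.89% and 2.0% of all genes. Hmgcs1, which makes HMG-CoA, had 321.0 and 330.6 CPM against 527.4 and 538.1 (−0.76 ± 0.10).

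Of the widest genes, Bnip3 and Lefty2 were lower in LIF/2i than in primed cells, by −2.35 ± 0.29 (adjusted p = 3.6e-05) and −2.23 ± 0.16 (adjusted p = 2.4e-07), both by edgeR. Bnip3 had 48.87 and 27.9 CPM in LIF/2i, 42.55 and 78.69 in rosette cells, and 124.6 and 246.9 in primed cells. Dazl was higher than in primed cells by 2.57 ± 0.37, and Sox15 and Dcaf12l1 by 2.11 ± 0.19 and 2.32 ± 0.25. 1700013H16Rik was higher than in rosette cells by 2.66 ± 0.20 (adjusted p = 1.7e-05) and than in primed cells by 2.45 ± 0.20. Rhox5 passed the test against neither culture (−0.18 ± 0.15, adjusted p = 0.57, and −0.08 ± 0.15, adjusted p = 0.69), and its excess CV was high in all 6 libraries, from 1.46 to 1.99.

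The spread of the markers was set beside that in the other cultures. The excess CV of Zfp42 was 0.263 and 0.229 in LIF/2i, 0.295 and 0.292 in rosette cells, and 1.40 and 1.32 in primed cells. That of Esrrb was 0.243 and 0.216, 0.297 and 0.422, and 1.04 and 1.40. Both genes were thus spread widest where their level was lowest, and the primed libraries did not overlap the others. Over 4103 genes with 1 UMI per well or more in all 6 libraries, the median was 0.273 and 0.246 in LIF/2i, 0.279 and 0.28 in rosette cells, and 0.3 and 0.295 in primed cells. The limma test of log2(excess CV squared + 0.05) called 0 of 4103 genes (0.0%) in either contrast and direction. At an unadjusted p under 0.05 it had 222 genes against rosette cells and 410 against primed cells, with median differences of −0.127 and −0.231 (log2). Zfp42 was narrower than in primed cells by 4.11 ± 0.33 on the log2 scale (−4.11; limma adjusted p = 0.136), and over 10 alternatives its adjusted p ran from 0.00298 to 0.746. Esrrb had −3.89 ± 0.41 (limma adjusted p = 0.232). Klf4, Tfcp2l1 and Tbx3 were under 1 UMI per well in primed cells and were not tested. Primed wells were fewer in R1 (104 of 188 kept), and its part in these values was not tested.

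**Figure D5:**
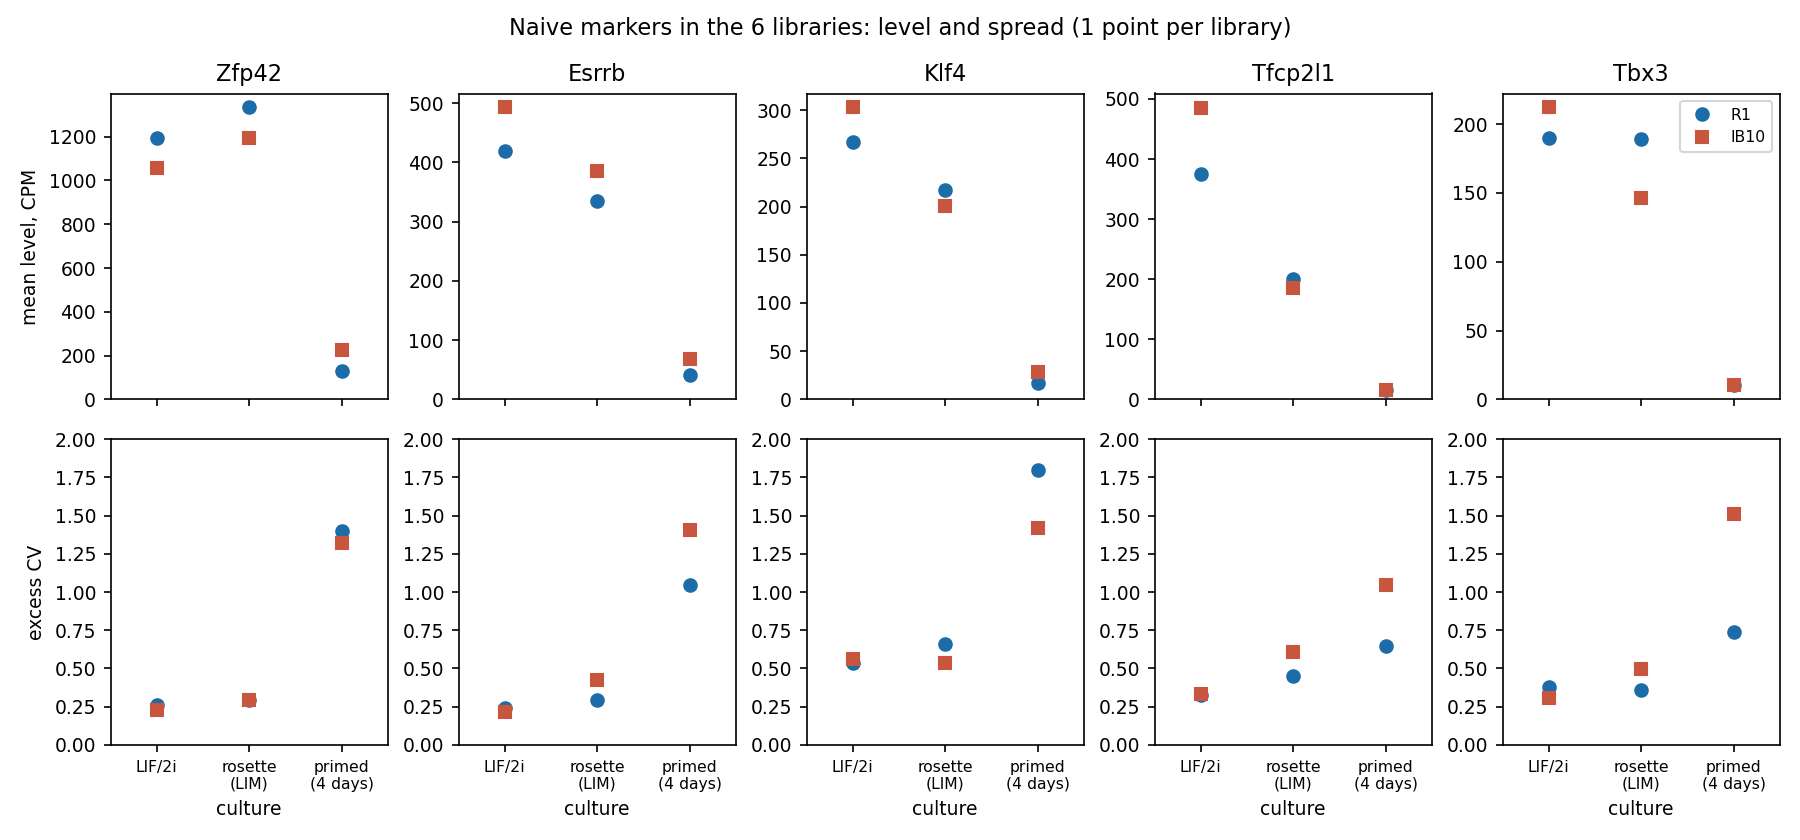
Mean level in CPM (top) and excess CV (bottom) of the 5 naive markers in the 6 libraries (circles R1, squares IB10; 1 point per library). Levels are low and the spread mostly wide in primed cells, and LIF/2i and rosette libraries lie near each other except in the level of Tfcp2l1.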

How the data were processed

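Single cells of 6 libraries (2 lines, 3 cultures) were measured with SORT-seq. In the deposited table, named as normalised by its authors, each value is an expected count: all 1297 distinct values equal whole numbers of the 4096 UMIs that 6 bases allow, corrected for collisions, with no common depth. BWA and the mm10/GRCm38 build are named per the submitters' processing notes; for versions and the gene annotation, the sources used here give nothing. Of the rows 19532 are genes, 1470 of them 0 throughout, and 91 are ERCC spike-ins, kept out of library sizes and tests (1.58% and 1.35% of the median LIF/2i well in R1 and IB10).

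Wells of 6000 to 200000 counts were used, with no doublet caller. Expected counts were the well total times the gene's share. For levels, counts were summed per library, rounded and fitted with edgeR 4.0.16 (quasi-likelihood, TMM, filterByExpr with a minimum count of 10) in R 4.3.3. For spread, limma 3.58.1 was used with a pseudocount of 0.05. Both models hold culture and line, and 1 variance estimate is shared by the 6 libraries; p-values are two-sided and Benjamini-Hochberg adjusted over all genes tested, with a threshold of 0.05. The line is a block because same-numbered libraries come from the same cell line in the labels. The labels name no separate cultures of a line. The p-values therefore measure only how these libraries vary, which may be technical. The scripts were tested on simulated data.

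Named genes are the 15 most abundant, the 20 widest (lower line, 1 UMI per well or more), the 5 most even (5 UMIs or more), 10 rarer genes by dispersion index, the 5 markers, members of 26 lists, and the 5 closest pairs. Of the even genes, 1 is not reported here. Members and lists were chosen with earlier results of these data known. Other pairs, and genes named beside a widest gene, were chosen after their values were seen. Of 369 distinct list genes 358 were found. Coordinates are from GENCODE M21 and promoters from the RefSeq table, matched by symbol. Alternatives were other well bounds, thinning to 6000 UMIs, trimming, scaling, DESeq2 1.42.0, filters, blocks and leaving out libraries.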

Additional observations from a re-analysis of the deposited data

Results flagged for a closer look

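A pair of the widest genes moved in opposite directions in the lines between LIF/2i and the rosette culture, by at least 0.58 on the log2 scale in each. The level of Dazl in LIF/2i relative to rosette cells was −0.64 in R1 and 1.14 in IB10 (log2, difference of log2(mean CPM + 1)). The level of Dnmt3l was 1.28 in R1 and −0.68 in IB10. Each line has 1 library per culture, so the difference between the lines was not tested.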

How the results depend on the processing

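The count of genes with an excess CV of 0.5 or more in both lines, 195, became 457 with wells thinned to 6000 UMIs, 92 without the 2 highest wells of each gene and 62 with a minimum mean of 2 UMIs per well; the last tests fewer genes, and trimming lowers spread by construction. Other well bounds, another scaling and uncorrected UMIs gave 192 to 198. The 72 co-varying pairs became 8 with thinning. After thinning the excess CV of Dnmt3l in R1 was −0.205, of Lgals1 in IB10 −0.969 and of Eif4g3 in IB10 −0.567, at levels well under 1 UMI per thinned well. Of the 25 excess CVs of the widest genes and markers, thinning moved a further 18 in R1 and 20 in IB10 by more than their spread between lines and left 6 and 3 within it; trimming moved 12 and 11. Against rosette cells, 242 genes higher in LIF/2i became 105 with DESeq2, 448 with no filter on low counts and 124 without the replicate block (cell line), and 115 to 553 on leaving out 1 library; 349 lower became 160, 587 and 161, and 143 to 722. The lowest counts came without rosette IB10 and the highest without a primed library (R1 or IB10). Against primed cells, 2346 higher became 1408 with DESeq2 and 1553 to 2606 on leaving out 1 library, and 2164 lower became 1298 and 1336 to 2405, the lowest without a LIF/2i library. Genes narrower in LIF/2i than in primed cells, 0 by limma, became 1 with a pseudocount of 0.2 (Zfp42), 2 with a minimum mean of 3 UMIs (Klf2 and Zfp42) and 2 without the replicate block (Tdh and Zfp42). The causes of these changes were not tested otherwise. The marker levels against primed cells stayed called under every alternative run.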
